A study of Homo sapiens with 12 samples.

Results

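The genes described here are the cholinesterases and a group of genes of the neuromuscular junction, followed in RD cells, a line grown from an embryonal rhabdomyosarcoma. They were taken as every probe set of the Affymetrix U133A array whose only annotated symbol was BCHE, ACHE, CHRNA1, CHRNB1, CHRND, CHRNG, MUSK, AGRN or NCAM1. That gave 19 probe sets of 9 genes, out of 22215 probe sets other than controls, of which 19065 carried 1 symbol. The genes were picked for their change with 4-OHT, so their values under 4-OHT are given as a description and are not tested. The study had 12 arrays, 1 per sample, in 4 groups of 3. The first group was RD cells transduced with PAX3-FKHR-ER and given 30 nM 4-OHT for 24 h, and the second was RD cells with the same construct and no 4-OHT. The third was RD cells transduced with the empty vector pK1 and given 4-OHT in the same way, and the fourth was pK1 cells with no 4-OHT. PAX3-FKHR is the fusion transcription factor of alveolar rhabdomyosarcoma, and in PAX3-FKHR-ER it carries the ligand-binding domain of an altered estrogen receptor. All 12 samples are therefore embryonal rhabdomyosarcoma cells, the fusion is an introduced one, and both constructs were delivered by transduction. The design text speaks of 3 populations for each construct. The promoter that drives the construct is not given in the sources used here, nor is whether a population was a clone. Because the labels do not say that equal replicate numbers came from separate cultures, p-values measure the spread between these samples, which may be partly technical.

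At the neuromuscular junction the motor nerve releases acetylcholine onto a patch of muscle membrane packed with nicotinic receptors. The muscle receptor is built from alpha1, beta1 and delta subunits with either the gamma subunit, in embryonic or denervated muscle, or the epsilon subunit, in adult muscle. Agrin, encoded by AGRN, is the matrix signal that acts through LRP4 on the kinase MuSK and gathers the receptors. Acetylcholinesterase, encoded by ACHE, ends the signal by splitting acetylcholine, and butyrylcholinesterase, encoded by BCHE, is a related enzyme with broader substrates. NCAM1 is an adhesion molecule of myoblasts, of regenerating fibres and of the junction. Genes of receptor subunits are known targets of the myogenic factors MYOD1 and MYOG, which bind E-boxes, short sites of the form CANNTG.

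Values are the deposited signals, on a linear scale on which the brightness of different probe sets cannot be set against each other. Changes are differences of log2(signal + 16), which understate the change of dim probe sets. Probe sets whose mean signal over the 12 arrays was under 36.7, the lowest 40%, were not tested. In bulk RNA of this kind, fewer cells that express a gene and less of its RNA in each cell cannot be told apart.

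The 4 arrays of replicate 1 stood apart from the other 8. Correlations of log2 signals were 0.957 to 0.982 among the replicate 1 arrays, 0.815 to 0.869 between them and the rest, and 0.867 to 0.982 among the rest. The median signal of 24 poly-A spike-in probe sets was 2.58 to 7.41 on the replicate 1 arrays and 118 to 291 on the others. The label of the construct did not show at FOXO1 or FGFR4 in replicate 1. A FOXO1 probe set (FOXO1 is another name of FKHR) gave 142, 146 and 124 in replicates 1, 2 and 3 of PAX3-FKHR-ER cells without 4-OHT, against 214, 52.1 and 36.1 in pK1 cells without 4-OHT. FGFR4, a known target of the fusion, gave 509, 479 and 483 in those PAX3-FKHR-ER cells, against 551, 89.8 and 190.5 in pK1 cells. Every replicate 1 value below is therefore that of the library labelled with the named construct, and results are given with and without replicate 1. Myogenic markers were read as a check of the label of the line. MYOD1 was at 197 to 2098 and DES at 85.6 to 862 over the 12 arrays, while MYOG was at 8.82 to 298 and MYF5 at 0.814 to 15.5. Because brightness cannot be compared between probe sets, these signals alone cannot settle the label. The summed signal of 6 myogenic markers was 901 and 922 in the replicate 2 arrays of pK1 cells with and without 4-OHT, and 2241 to 8251 on the other 10 arrays.

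BCHE, on chromosome 3 (165772904 to 165837423 on the minus strand, GRCh38.p14), was the tested member with the largest change under 4-OHT. Its probe set (205433_at) read 40.8, 1624 and 1559 in replicates 1, 2 and 3 of PAX3-FKHR-ER cells with 4-OHT. Without 4-OHT the same cells read 20.8, 583 and 514. The pK1 cells read 209, 116 and 459.6 with 4-OHT and 38.0, 126 and 496 without it. Within replicates 2 and 3, both PAX3-FKHR-ER arrays with 4-OHT lay above every other array, and the pK1 arrays barely differed with treatment. In replicate 1 the 4 arrays read 20.8 to 209, and the highest was the one labelled pK1 with 4-OHT.

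Taken by pair, the log2 change of BCHE with 4-OHT in PAX3-FKHR-ER cells was 0.63, 1.45 and 1.57 in replicates 1, 2 and 3. In pK1 cells it was 2.06, -0.11 and -0.11. Over replicates 2 and 3 the means were 1591 ± 46.0 with 4-OHT and 549 ± 49.0 without it in PAX3-FKHR-ER cells, against 288 ± 243 and 311 ± 261 in pK1 cells (SD, n = 2 each). That is a 2.85-fold higher level on the log2(signal + 16) scale in PAX3-FKHR-ER cells, and 0.927-fold in pK1 cells. With replicate 1 included, the spread was close to the mean itself: 1074 ± 896 and 373 ± 307 in PAX3-FKHR-ER cells with and without 4-OHT, and 261 ± 178 and 220.1 ± 243 in pK1 cells (SD, n = 3 each).

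Ranked among 8124 genes, 1 probe set per gene, BCHE was number 16 from the top for its mean change in PAX3-FKHR-ER cells over replicates 2 and 3, and number 5776 for that in pK1 cells. In replicate 1 the order of the constructs was the other way round: BCHE was number 182 from the top in the PAX3-FKHR-ER pair and number 6 in the pK1 pair. The change in the PAX3-FKHR-ER pairs minus that in the pK1 pairs was 1.57 and 1.68 in replicates 2 and 3, and -1.43 in replicate 1. The summed signal of 5 fibroblast markers, led by COL3A1, was also low in replicate 1, but otherwise ran only partly with BCHE: it was 1507, 7123 and 5827 in PAX3-FKHR-ER cells with 4-OHT and 1418, 5628 and 5361 without it. It was 1178, 2962 and 6151 in pK1 cells with 4-OHT and 1340.0, 3089 and 6203 without it, so that it was highest in pK1 replicate 3 among the replicate 3 arrays and lower with 4-OHT in the pK1 pair of replicate 1, unlike BCHE. Its part in the BCHE values was not tested.

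**Figure D1:**
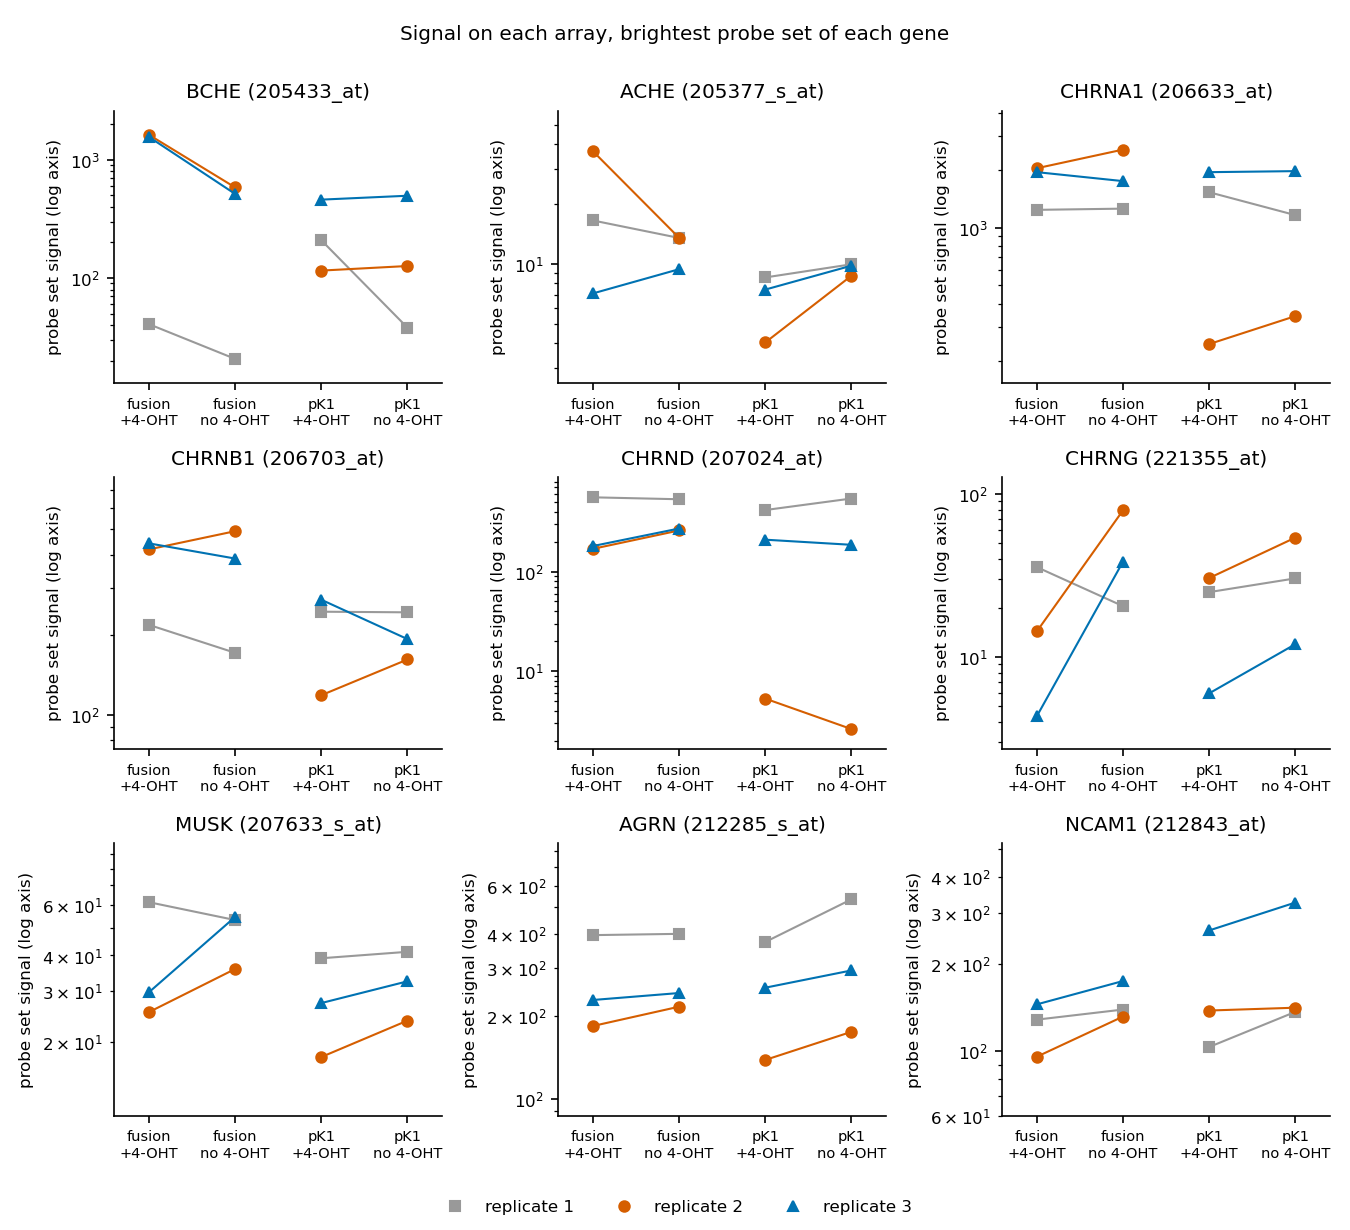
Signal of the brightest probe set of each member (vertical axis, log scale) on every array, by group (horizontal axis), with 1 symbol per replicate number. The groups are PAX3-FKHR-ER, called fusion in the axis labels, with and without 4-OHT, then pK1 with and without 4-OHT. BCHE reads 1624 and 1559 in replicates 2 and 3 of PAX3-FKHR-ER cells with 4-OHT, while CHRND falls to 5.28 and 2.61 in replicate 2 of pK1 cells.

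RefSeq promoters on GRCh38.p14 matched 6 of the 9 genes: BCHE, ACHE, CHRNA1, CHRNB1, CHRND and MUSK. The 250 bases before the start are shown for BCHE, which had the largest change among the tested members, and for CHRNA1 and CHRND, subunit genes that were both lowest on the pK1 arrays of replicate 2. A second stretch of BCHE just after its start holds an E-box of the form CAGCTG. Capitals mark E-boxes (CANNTG, which reads the same on both strands), and each sequence runs 5′ to 3′ in the gene's direction.
BCHE promoter (chr3:165837424-165837673, minus strand): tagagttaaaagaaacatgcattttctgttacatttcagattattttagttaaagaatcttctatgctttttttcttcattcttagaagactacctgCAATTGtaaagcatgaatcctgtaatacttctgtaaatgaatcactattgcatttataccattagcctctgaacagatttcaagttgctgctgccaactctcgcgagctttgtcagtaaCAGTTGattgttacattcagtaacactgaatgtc
BCHE after its start (chr3:165837381-165837402, minus strand): tggagcagCAGCTGcatcctgc
CHRNA1 promoter (chr2:174764473-174764722, minus strand): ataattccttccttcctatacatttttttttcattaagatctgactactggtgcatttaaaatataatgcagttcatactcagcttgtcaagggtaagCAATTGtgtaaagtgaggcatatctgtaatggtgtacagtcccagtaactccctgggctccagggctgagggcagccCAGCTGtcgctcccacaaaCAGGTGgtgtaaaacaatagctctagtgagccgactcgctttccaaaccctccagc
CHRND promoter (chr2:232525910-232526159, plus strand): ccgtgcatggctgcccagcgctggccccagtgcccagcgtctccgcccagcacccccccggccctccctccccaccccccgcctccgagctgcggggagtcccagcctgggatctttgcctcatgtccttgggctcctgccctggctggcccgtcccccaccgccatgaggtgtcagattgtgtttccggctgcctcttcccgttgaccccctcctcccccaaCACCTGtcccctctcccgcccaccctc
In windows of 300 bases, which add 50 bases after the start, BCHE held 3 E-boxes, CHRNA1 held 3, CHRND held 2, CHRNB1 held 4 and MUSK held 3. Of the 3 ACHE promoters listed, 1 held 3 E-boxes and the others held 0. An E-box was present in 68.9% of 27305 promoters of the same length, so its presence does not set these genes apart. CAGCTG, a form of CANNTG, was present in BCHE, CHRNA1 and MUSK and in 17.7% of all promoters. GTCACG, a core that paired-domain proteins such as PAX3 can bind, was searched on both strands and found only in 1 ACHE promoter among the members, against 9.23% of all promoters. A palindrome that paired homeodomains can bind, TAAT and ATTA spaced by 3 bases, was in none of the members' windows and in 0.381% of all promoters. Other spacings were not searched, so the absence of a PAX3 homeodomain site was not tested.

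ACHE (chromosome 7, 100889994 to 100896994) was dim on every array. Its brightest probe set (205377_s_at) read 16.6, 37.0 and 7.12 in PAX3-FKHR-ER cells with 4-OHT and 13.5, 13.6 and 9.42 without it. It read 8.57, 4.03 and 7.44 in pK1 cells with 4-OHT and 9.98, 8.74 and 9.82 without it. The PAX3-FKHR-ER cells with 4-OHT held the highest reading, in replicate 2, and that group overlapped all the others. The other ACHE probe sets read 3.44 to 20.9 (210332_at) and 2.44 to 25.2 (205378_s_at). All 3 were under the signal limit and were not tested. COLQ, the collagen tail that anchors acetylcholinesterase in the synaptic basal lamina, read 3.45 to 22.3 and was not tested either. PRIMA1, its membrane anchor, was not analysed here.

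The muscle receptor subunit genes did not share the 4-OHT change of BCHE. CHRNA1 (chromosome 2, 174747592 to 174764472), the acetylcholine-binding alpha1 subunit, was bright in nearly every array. Its main probe set (206633_at) read 1238, 2044 and 1950.1 in PAX3-FKHR-ER cells with 4-OHT and 1256, 2560.0 and 1750.3 without it. In pK1 cells it read 1530.2, 245 and 1949.8 with 4-OHT and 1161, 344 and 1974 without it. Both replicate 2 arrays of pK1 cells were far below the other 10 arrays, and no group stood clear of the rest. The log2 change with 4-OHT was -0.02, -0.32 and 0.15 in the PAX3-FKHR-ER pairs and 0.39, -0.46 and -0.02 in the pK1 pairs. The second CHRNA1 probe set (211039_at) had its lowest readings on the same pK1 replicate 2 arrays, 21.1 with 4-OHT and 11.5 without, against 64.3 to 119 elsewhere.

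CHRNB1 (chromosome 17, 7445061 to 7457710), the beta1 subunit, read 218, 419 and 442 in PAX3-FKHR-ER cells with 4-OHT and 171, 491 and 387 without it. It gave, in pK1 cells, 244, 118 and 271 with 4-OHT and 243, 161 and 193 without it. Over replicates 2 and 3 every PAX3-FKHR-ER array lay above every pK1 array, whatever the treatment, whereas in replicate 1 both PAX3-FKHR-ER arrays lay below both pK1 arrays. The 4-OHT change of CHRNB1 was 0.32, -0.22 and 0.18 in PAX3-FKHR-ER pairs and 0.01, -0.40 and 0.46 in pK1 pairs, with no common direction in either construct.

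CHRND and CHRNG, the delta and gamma subunit genes, are neighbours on chromosome 2, at 232526160 to 232536664 and 232539692 to 232548115. CHRND read 557, 169 and 180.2 in PAX3-FKHR-ER cells with 4-OHT and 532, 258 and 270.4 without it. In pK1 cells it read 415, 5.28 and 209 with 4-OHT and 541, 2.61 and 185 without it. In replicates 2 and 3 it was lower with 4-OHT in PAX3-FKHR-ER cells, at 175 ± 7.99 against 264 ± 8.39 without it (SD, n = 2 each), and in pK1 replicate 2 it was at its lowest under either condition. Its log2 changes with 4-OHT were 0.06, -0.57 and -0.55 in the PAX3-FKHR-ER pairs and -0.37, 0.19 and 0.16 in the pK1 pairs.

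CHRNG, the embryonic subunit, was under the signal limit and not tested. It read 35.5, 14.3 and 4.32 in PAX3-FKHR-ER cells with 4-OHT and 20.5, 79.4 and 38.4 without it. Readings in pK1 cells were 25.0, 30.5 and 5.97 with 4-OHT and 30.3, 54.0 and 11.97 without it. The direction in replicates 2 and 3 of PAX3-FKHR-ER cells was that of CHRND, with log2 changes of -1.65 and -1.42, but the pK1 pairs also had lower readings with 4-OHT, by -0.59 and -0.35, and replicate 1 of PAX3-FKHR-ER cells had a higher one, by 0.50. MYOG, the myogenic factor of differentiating muscle, went the same way in PAX3-FKHR-ER cells. It read 53.0, 20.8 and 19.7 in PAX3-FKHR-ER cells with 4-OHT and 13.4, 298 and 172 without it, against 35.6, 8.82 and 101 in pK1 cells with 4-OHT and 32.8, 10.3 and 94.9 without it. Its part in the subunit values was not tested.

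The kinase gene MUSK (chromosome 9, 110668791 to 110806558) was dim. Its brighter probe set (207633_s_at) had a mean signal of 36.8, just over the limit of 36.7. It read 61.2, 25.4 and 29.8 in PAX3-FKHR-ER cells with 4-OHT and 53.1, 35.9 and 54.4 without it. In pK1 cells it read 39.1, 17.8 and 27.3 with 4-OHT and 41.2, 23.8 and 32.5 without it. The readings of the 4 groups overlapped. The log2 change with 4-OHT was 0.16, -0.33 and -0.62 in PAX3-FKHR-ER pairs and -0.05, -0.24 and -0.16 in pK1 pairs. The dimmer probe set (207632_at, not tested) gave 0.08, -0.51 and -0.57 in the PAX3-FKHR-ER pairs and -0.49, -0.05 and -0.12 in the pK1 pairs, the same signs in replicates 2 and 3.

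AGRN (chromosome 1, 1020120 to 1056116) had 4 probe sets, of which 3 were tested. The brightest (212285_s_at) read 396, 184 and 229 in PAX3-FKHR-ER cells with 4-OHT and 399.8, 217 and 243 without it. The pK1 samples read 373, 138 and 254 with 4-OHT and 535, 175 and 294 without it. It was lower with 4-OHT in all 6 pairs, by -0.02 to -0.22 in PAX3-FKHR-ER cells and -0.20 to -0.50 in pK1 cells, so the direction was common to both constructs. The next probe set (217419_x_at) was lower in 5 of the 6 pairs and changed by 0.10 in replicate 1 of PAX3-FKHR-ER cells. A dimmer one (212283_at) disagreed: it changed by 0.24, -0.60 and -0.63 in PAX3-FKHR-ER pairs and 0.68, 0.02 and -0.23 in pK1 pairs. The fourth (217410_at) read 4.41 to 26.2 and was not tested.

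NCAM1 (chromosome 11, 112961420 to 113278436) also had 4 probe sets, of which 2 were tested. The brightest (212843_at) read 129, 95.8 and 145 in PAX3-FKHR-ER cells with 4-OHT and 139, 132 and 175 without it. In pK1 cells it read 104, 138 and 262 with 4-OHT and 137, 141 and 327 without it. Like the brightest AGRN probe set it was lower with 4-OHT in all 6 pairs, by -0.10, -0.40 and -0.24 in PAX3-FKHR-ER cells and -0.36, -0.03 and -0.30 in pK1 cells. Its highest readings were both from replicate 3 of pK1 cells. The second tested NCAM1 probe set (217359_s_at) was lower with 4-OHT in the 3 PAX3-FKHR-ER pairs, by -0.06, -0.37 and -0.13, but changed by -0.68, 0.09 and 0.22 in the pK1 pairs. The remaining probe sets were dim, at 5.26 to 32.9 (214952_at) and 3.80 to 14.6 (209968_s_at), and the first of them went the other way in PAX3-FKHR-ER pairs, by 0.49, 0.33 and 0.40. NCAM1 is also a gene of neurons and Schwann cells. The summed signal of 6 neuron markers, most of it TUBB3, was 3576 to 4973 in PAX3-FKHR-ER cells and 3155 to 3723 in pK1 cells, while STMN2 was at 0.895 to 21.7. The neurofilament genes went the other way in replicate 2: NEFM read 77.5 and 148 in PAX3-FKHR-ER cells with and without 4-OHT, against 787 and 699 in pK1 cells, and NEFL read 219.9 and 270.4, against 480.3 and 479. The summed signal of the 3 Schwann cell markers measured was 196 to 346 in PAX3-FKHR-ER cells and 82.4 to 257 in pK1 cells. Most of it was ERBB3, at 60.4 to 326, while SOX10 was at 8.23 to 27.6 and S100B at 1.45 to 4.62. The part of either list in the NCAM1 values was not tested.

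**Figure D2:**
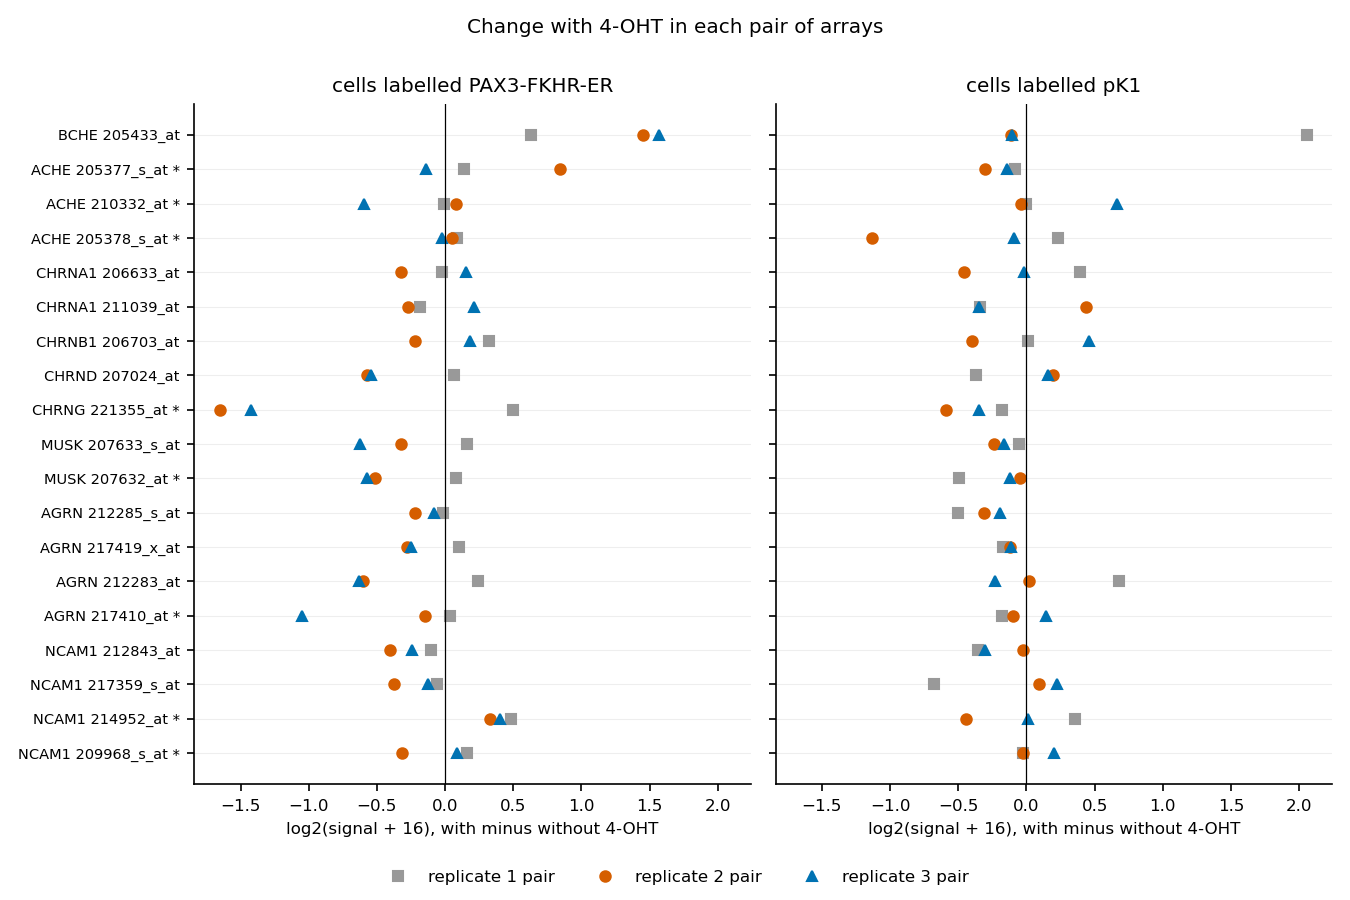
Change in log2(signal + 16) with 4-OHT (horizontal axis) for every member probe set (rows), with 1 point per replicate pair. PAX3-FKHR-ER is on the left and pK1 on the right. An asterisk marks probe sets under the signal limit, which were not tested. BCHE is at 1.45 and 1.57 in PAX3-FKHR-ER replicates 2 and 3, and at 2.06 in the replicate 1 pair labelled pK1.

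Of the 19 probe sets 11 passed the signal limit, for 7 of the 9 genes; ACHE and CHRNG had none. In a limma fit of all 12 arrays, 0 of the 11 passed an adjusted p of 0.05 for 4-OHT in PAX3-FKHR-ER cells, where 0.0% of 13329 tested probe sets did, and 0 of the 11 had an unadjusted p under 0.05, against 62 of all. For 4-OHT in pK1 cells the count was again 0 of 11 (0.0% of all; 0 members and 72 of all at an unadjusted p under 0.05). For the difference of both changes it was 0 of 11 as well (0.0% of all, with 0 members and 39 of all at an unadjusted p under 0.05). That fit had no term for the replicate number, so the spread between replicates entered its error. With the replicate block over 12 arrays, limma gave 894, 916 and 634 of all at an unadjusted p under 0.05 for these contrasts. Of the members 1, 1 and 0 were among them. Counts from the fit without the block, here and below, therefore do not show that a gene was unchanged. Fitted on replicates 2 and 3 with the replicate pair as a block, 1 of 11 passed for 4-OHT in PAX3-FKHR-ER cells and it was BCHE, where 1.4% of all did. BCHE was also the 1 of 11 that passed for the difference, where 0.0525% of all did, and for 4-OHT in pK1 cells 0 of 11 members and 0.0% of all passed. These counts are a description, since BCHE was chosen on the same contrast, and the blocked fit of the 4-OHT changes had only 2 residual degrees of freedom.

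The constructs were compared at each treatment. The genes were picked for their 4-OHT change, with earlier results of these data known. The construct contrast shares arrays with that change, so it is not independent of the choice. With 4-OHT, in all 12 arrays, 0 of 11 member probe sets passed (0.0% of all) by limma, with 0 members and 267 of all at an unadjusted p under 0.05. Without 4-OHT it was 0 of 11 (0.0% of all), with 0 members and 277 of all at an unadjusted p under 0.05. With the replicate block over 12 arrays, limma gave 931 of all with 4-OHT and 981 without it at that level, and 0 members. The block, here and below, pairs the constructs by replicate number, which was assumed and not tested. The limma change of BCHE was 1.13 ± 1.40 with 4-OHT (SE, adjusted p = 0.9998) and 0.52 ± 1.40 without it (adjusted p = 0.9999). By replicate number, the BCHE change was -1.98, 3.64 and 1.73 with 4-OHT, and -0.56, 2.07 and 0.05 without it. PAX3-FKHR-ER cells were higher than pK1 cells in 2 of 3 replicates under either condition. In replicates 2 and 3 with the block, the BCHE change was 2.68 ± 0.56 with 4-OHT (SE, limma adjusted p = 0.151) and 1.06 ± 0.56 without it (adjusted p = 0.574), so BCHE did not pass at either treatment. Without 4-OHT the sign of the 12-array change, fitted without the block, turned when single arrays were left out. It was -0.18 and -0.09 when replicate 2 or 3 of PAX3-FKHR-ER cells was left out, and -0.25 without replicate 1 of pK1 cells. In each case the array of the other construct with the same replicate number stayed in.

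The subunit genes had higher fitted levels in PAX3-FKHR-ER cells than in pK1 cells, but none passed the test. CHRND differed by 1.11 ± 1.23 with 4-OHT and 1.46 ± 1.23 without it, and CHRNA1 by 0.89 ± 0.74 and 0.93 ± 0.74 (SE over 12 arrays, limma adjusted p = 0.9998 with and 0.9999 without 4-OHT for both genes). Both differences rested on replicate 2 of pK1 cells. When that pK1 array was left out, the CHRND difference was -0.18 with 4-OHT and 0.07 without it, and the CHRNA1 difference was -0.02 with 4-OHT and 0.23 without it. CHRNB1 differed by 0.74 ± 0.42 with 4-OHT and 0.67 ± 0.42 without it in all arrays, and by 0.40 and 0.54 without pK1 replicate 2. In replicates 2 and 3 with the block CHRNB1 differed by 1.19 ± 0.33 with 4-OHT (SE, limma adjusted p = 0.227) and 1.23 ± 0.33 without it (adjusted p = 0.371).

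MUSK differed by 0.29 ± 0.31 with 4-OHT and 0.40 ± 0.31 without it, and was higher in PAX3-FKHR-ER cells in all 3 replicate numbers under either condition. AGRN (212285_s_at) differed by 0.10 ± 0.45 with 4-OHT and -0.13 ± 0.45 without it, and NCAM1 (212843_at) by -0.32 ± 0.37 and -0.30 ± 0.37 (SE over 12 arrays; limma adjusted p = 0.9998 with and 0.9999 without 4-OHT for each of these). NCAM1 had the lower fitted level in PAX3-FKHR-ER cells under both conditions, but without the pK1 array of replicate 3 the difference was 0.019 with 4-OHT and 0.077 without it. The sign of AGRN turned as well, to -0.25 with 4-OHT when pK1 replicate 2 was left out and to 0.26 without 4-OHT when pK1 replicate 1 was left out. In replicates 2 and 3 with the block, 0 of 11 member probe sets passed with 4-OHT, where 0.158% of all did, and 0 of 11 without it, where 0.0075% of all did; 3 and 1 members had an unadjusted p under 0.05 in those limma fits, against 1732 and 1299 of all. Over the 7 tested genes in replicates 2 and 3, the median construct difference was 1.19 with 4-OHT and 1.06 without it, beside -0.02 and 0.00 over 8124 genes. Those medians rested on replicate 2, where they were 1.70 with 4-OHT and 1.52 without it. In replicate 3 the median was 0.00 with 4-OHT and 0.05 without it, beside -0.03 and -0.02 over all genes, and in replicate 1 it was 0.08 and -0.02, beside 0.03 and -0.06.

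**Figure D3:**
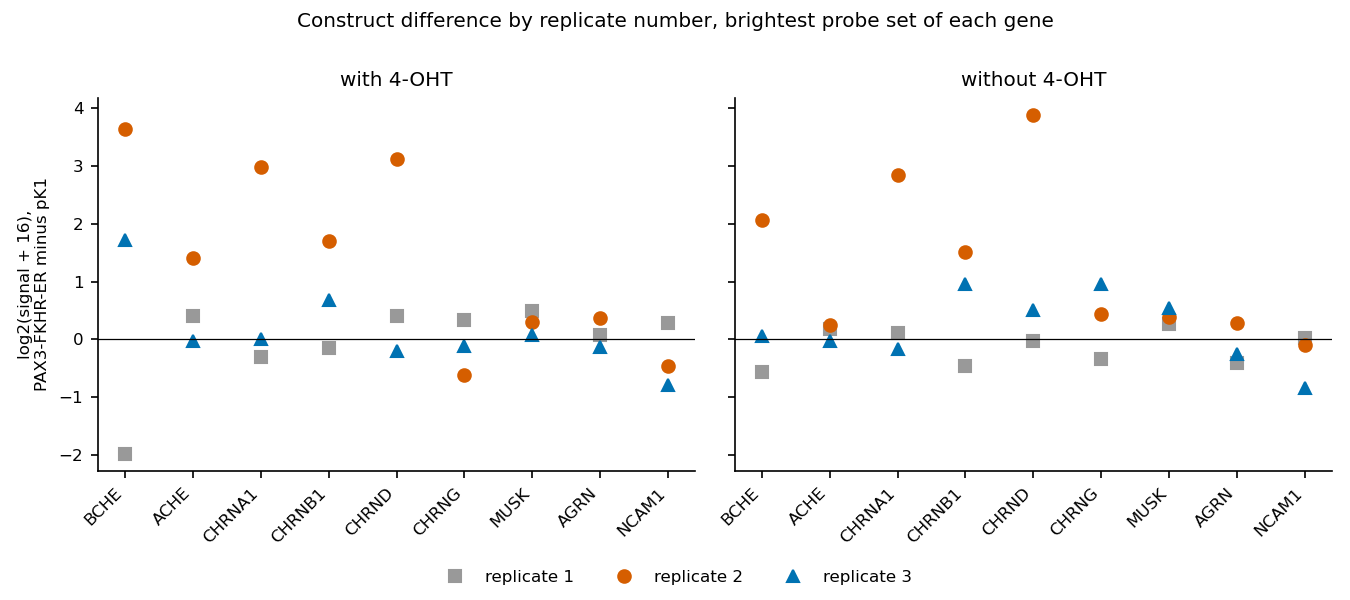
Difference in log2(signal + 16) between PAX3-FKHR-ER and pK1 cells (vertical axis) for the brightest probe set of each member (horizontal axis), with 1 point per replicate number. The panel with 4-OHT is on the left and that without it on the right. ACHE and CHRNG, under the signal limit and not tested, are shown too. The replicate 2 points of CHRNA1 (2.98 and 2.84), CHRND (3.12 and 3.88) and BCHE (3.64 and 2.07) stand far above the other points of the same genes.

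The pull of pK1 replicate 2 was shared by most members. In a count made after their values were seen, the 2 arrays of pK1 replicate 2 were the 2 lowest of the 12 for 5 of the 7 tested genes, AGRN, CHRNA1, CHRNB1, CHRND and MUSK (71.4%), and for 770 of 8124 genes (9.48%). No other pair of arrays of 1 construct and replicate number held the 2 lowest values of any member, while their shares over all genes ran from 3.4% to 5.74%. Both tested myogenic factors, MYOD1 and MYOG, were lowest there too. MYOD1 read 197 with 4-OHT and 222 without it in pK1 replicate 2, and 322 to 2098 on the other arrays. On the array of pK1 replicate 2 with 4-OHT the 3′ to 5′ signal ratio of ACTB was 1.62. This ratio was 0.833 to 1.05 on the others, and 0.941 on the pK1 replicate 2 array without 4-OHT. Its part, and that of the myogenic markers, in the low subunit values was not tested.

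Other genes of the junction were counted from a list of 29, of which 24 had a probe set with 1 symbol and 21 were tested. By limma 0 were called in any of the 5 contrasts, over 12 arrays or over replicates 2 and 3 with the block. At a limma unadjusted p under 0.05 there were 0 or 1 of the 21 in each contrast over 12 arrays. Over all 13329 tested probe sets the counts there were 39 to 277. In the blocked fit of replicates 2 and 3 the count was lowest for 4-OHT in pK1 cells, at 1 (760 of all). It was highest for the constructs with 4-OHT, at 6 (1732 of all). Over replicates 2 and 3, the median change of the 21 genes with 4-OHT was -0.10 in PAX3-FKHR-ER cells, with 8 above and 13 below 0. In pK1 cells it was -0.03, and over all tested probe sets the medians were -0.02 and -0.01. The largest mean changes in PAX3-FKHR-ER cells were -0.63 for LAMA4, a laminin chain of the basal lamina, 0.53 for NRG1, the growth factor neuregulin, -0.42 for GABPB1, a subunit of a transcription factor that acts on synaptic promoters, and -0.41 for DTNA, a dystrobrevin of the postsynaptic scaffold. RAPSN, whose product rapsyn clusters the receptors, read 493, 148 and 154 in PAX3-FKHR-ER cells with 4-OHT and 431, 149.98 and 139 without it. In pK1 cells RAPSN read 405, 42.8 and 124 with 4-OHT and 426, 39.2 and 133.1 without it, again lowest in replicate 2. It was 1 of 6 among the 21 listed genes (28.6%) with that pattern, the others being ERBB3, ETV5, NES, NRG1 and UTRN.

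Of 16 neuronal nicotinic and muscarinic receptor genes 13 had a probe set and 8 were tested. CHRNA9, a nicotinic subunit known from inner ear hair cells, was called lower with 4-OHT in PAX3-FKHR-ER cells of replicates 2 and 3, by -0.86 ± 0.17 (SE, limma with the block, adjusted p = 0.0484), and 0 of the 8 were called over 12 arrays, where 0 had an unadjusted p under 0.05. It read 121, 71.7 and 111 in PAX3-FKHR-ER cells with 4-OHT and 134, 129 and 239 without it, lower in each pair. In pK1 cells CHRNA9 changed by -1.26, -0.19 and -0.02, so its steepest single pair was the replicate 1 pair labelled pK1. The 3 genes of acetylcholine synthesis and transport, CHAT, SLC18A3 and SLC5A7, were all under the limit. Of 5 relatives and modifying enzymes of NCAM1 only L1CAM and ST8SIA4 were tested, and 0 were called by limma in either fit, with 0 at an unadjusted p under 0.05. Of 4 myogenic factors 2 were tested: MYOG was called lower with 4-OHT in PAX3-FKHR-ER cells of replicates 2 and 3, by -2.74 ± 0.25 (SE, limma with the block, adjusted p = 0.00327; 1.4% of all probe sets were called there), and MYOD1 was called higher in PAX3-FKHR-ER than pK1 cells with 4-OHT, by 2.80 ± 0.29 (adjusted p = 0.0385; 0.158% of all). Over 12 arrays 0 of the 2 were called by limma in any contrast, and 0 had an unadjusted p under 0.05. The calls of CHRNA9, MYOG and MYOD1 are descriptions, as that of BCHE is. The lists were chosen with earlier results of these data known, and replicate 1 was set apart on values of these same arrays. The blocked fits had 2 residual degrees of freedom for the 4-OHT changes and 3 for the constructs. They also rest on the assumed pairing by replicate number. In replicate 1 MYOG was higher with 4-OHT in PAX3-FKHR-ER cells, by 1.23, and MYOD1 with 4-OHT was lower in PAX3-FKHR-ER cells, at 1216 against 2098 in pK1 cells.

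Genes with a pattern like that of BCHE were sought by Pearson correlation of log2(signal + 16) among the other 8123 tested genes. Over all 12 arrays the 5 most alike were SH3GLB1 (r = 0.976), DPYD (0.967), MEG3 (0.966), ANGPT2 (0.956) and IFI16 (0.948). These values follow the gap between replicate 1 and the other arrays as well as treatment. Over the 8 arrays of replicates 2 and 3 they were ANK1 (r = 0.996), NPY (0.989), TUSC3 (0.988), CHD7 (0.987) and CEBPD (0.984). The points share arrays, pairs and constructs, so r is a description. ANK1, which encodes an ankyrin of the membrane skeleton, read 1079 and 1073 in replicates 2 and 3 of PAX3-FKHR-ER cells with 4-OHT, against 489 and 391 without it, and 103 and 349.5 in pK1 cells with 4-OHT, against 96.2 and 324 without it. Among the members, CHRNB1 came closest to BCHE, at r = 0.71 over 12 arrays and 0.85 over 8, followed by CHRNA1 at 0.50 and 0.84. CHRND was at -0.12 and 0.80, MUSK at -0.41 and 0.36, AGRN at -0.54 and 0.47 and NCAM1 at 0.14 and -0.15.

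**Figure D4:**
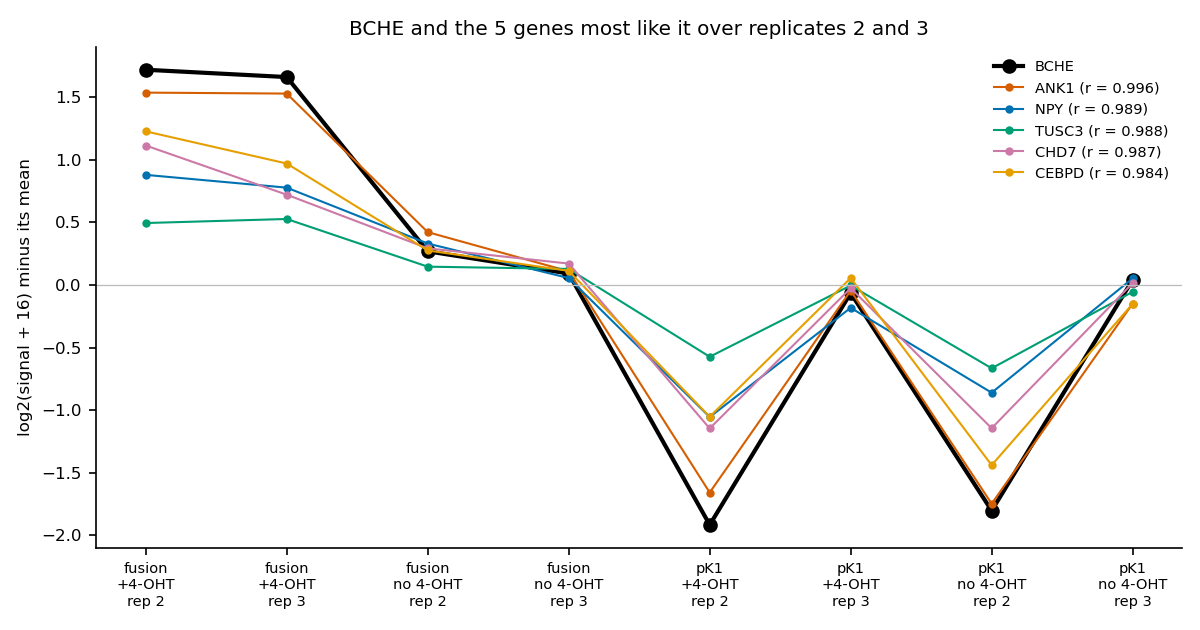
Levels of BCHE and of the 5 genes with the highest Pearson correlation to it over the 8 arrays of replicates 2 and 3. The horizontal axis gives those arrays in the 4 groups. The vertical axis is log2(signal + 16) minus each gene's own mean over those arrays. ANK1, at r = 0.996, is highest in PAX3-FKHR-ER cells with 4-OHT and lowest in pK1 replicate 2, as BCHE is. The ANK1 signals behind those highest points were 1079 and 1073.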

How the data were processed

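Total RNA of 12 RD samples was labelled with biotin and measured on Affymetrix U133A arrays, per the labels' protocols. The deposited values are probe set signals of linear intensity, made by the authors with software that the submitters' processing notes name as GCOS and MAS5. They were not scaled again, and no detection calls or raw images were used here. The precision is limited by 3 arrays per group.

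The table held 22283 probe sets, of which 68 controls were left out. Names came from the array annotation (19065 probe sets with 1 symbol, 1043 with several and 2107 with none), and a gene with several probe sets is represented by the brightest. Signals were taken as log2(signal + 16), and the 40% with the lowest mean were left out, leaving 13329. Group means were fitted with limma 3.58.1 in R 4.3.3 (lmFit, eBayes with an intensity trend, two-sided, Benjamini-Hochberg within each contrast). The fitting code was checked on simulated arrays with known changes. Their spread was set by hand and not taken from these arrays, so the check says nothing of the power here. Deviations from the group means were correlated between arrays with the same replicate number. Their r was 0.70 to 0.85 between treatments and 0.15 to 0.69 between constructs, lowest in replicate 2. No such r is given for unlike numbers, and the gap between replicate 1 and the rest enters these values. They therefore cannot show that equal numbers mark pairs. Among the arrays of replicates 2 and 3, the highest correlation of log2 signals, 0.982, was between treatments in pK1 replicate 3. The lowest, 0.867, was between the constructs with 4-OHT in replicate 2. The block by replicate number is thus an assumption, which the labels do not state. Alternatives were 9 other settings and leaving out each array. All members are named, and other genes by list: those past the threshold, or up to 4 by size of change. For likeness to BCHE the 5 highest correlations are named. The members and lists were chosen with earlier results of these data known. Promoters are RefSeq's on GRCh38.p14. Plots used matplotlib 3.10.9 in Python 3.11.15.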

Additional observations from a re-analysis of the deposited data

Results flagged for a closer look

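For 3 probe sets both pairs of replicates 2 and 3 moved one way with 4-OHT in PAX3-FKHR-ER cells and the opposite way in pK1 cells. The mean difference of the log2 changes, PAX3-FKHR-ER minus pK1, was 1.62 for BCHE, -0.73 for CHRND and -0.41 for the NCAM1 probe set 217359_s_at. The differences are given as descriptions and were not tested for this purpose, because the members were chosen on the same contrast. In replicate 1 the differences had the opposite sign, at -1.43 for BCHE, 0.44 for CHRND and 0.62 for that NCAM1 probe set. Groups of 3 arrays are too small for a search for single outlying arrays.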

How the results depend on the processing

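Over 21 alternatives, 9 other settings and 12 that left out 1 array each, the count of called members moved from 0 only with replicates 2 and 3 and the replicate block, where it was 1 for 4-OHT in PAX3-FKHR-ER cells and 1 for the difference of the changes. With the replicate block over 12 arrays 0 members were called in any contrast. Over 35 member values and these alternatives, 75 of 730 values had the opposite sign to the one reported: 62 of 438 for the 4-OHT changes and their difference, and 13 of 292 for the construct comparisons. In the construct comparison with 4-OHT, leaving out 1 array gave -0.0205 to 1.43 for CHRNA1, -0.18 to 1.99 for CHRND, -0.25 to 0.41 for AGRN and -0.59 to 0.019 for NCAM1. Without 4-OHT it gave -0.25 to 1.84 for BCHE, -0.50 to 0.26 for AGRN and -0.50 to 0.077 for NCAM1, and replicates 2 and 3 alone, with or without the replicate block, gave 0.011 for AGRN. Of the 62, 51 came from leaving out 1 array. This took the BCHE change with 4-OHT in PAX3-FKHR-ER cells to between -0.10 and 2.82, and that of CHRNA1 to between -0.31 and 0.20. It took the BCHE difference to as low as -0.71. These fits had no replicate block, so the partner of the array left out stayed in and the gap between replicates entered the change. The BCHE value of -0.10 came without replicate 1 of PAX3-FKHR-ER cells without 4-OHT, whereas the paired changes were 0.63, 1.45 and 1.57. The ranges therefore do not show how far the paired changes vary. The lowest adjusted p of any member in the construct comparisons was 0.151, for BCHE with 4-OHT. MUSK was not tested when the lowest 60% of probe sets were left out. Probe sets of low signal, including those of ACHE and CHRNG, limit what could be seen.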

Other observations

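Some of the genes most like BCHE over replicates 2 and 3 were also higher with 4-OHT in the pK1 pair of replicate 1 and not in its PAX3-FKHR-ER pair; BCHE was higher in both, and more so in the pK1 pair. ANK1 read 448 with 4-OHT and 449 without it in the PAX3-FKHR-ER pair, against 943 and 564 in the pK1 pair. CHD7 read 350.2 with 4-OHT and 428 without it in the PAX3-FKHR-ER pair, against 931 and 418 in the pK1 pair. TUSC3 read 700.5 and 770.1 in the PAX3-FKHR-ER pair, against 739 and 645 in the pK1 pair. NPY and CEBPD did not show this: NPY read 39.4 and 50.6 in the PAX3-FKHR-ER pair, against 49.0 and 53.3 in the pK1 pair, and CEBPD read 283 and 231 in the PAX3-FKHR-ER pair, against 212 and 248 in the pK1 pair. MYOD1 read 1216 and 1006 in the PAX3-FKHR-ER pair, against 2098 and 1112 in the pK1 pair. No test was made of these single pairs.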
